A study of Mus musculus with 8 samples.

Results

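Forced expression of Esrrb in embryonic stem cells (ESCs) that still expressed nucleostemin (NS, encoded by Gnl3) was examined by setting the Dox-untreated array of Esrrb-overexpressing cells against the Dox-untreated array of cells bearing an empty vector. These are 2 of the 8 arrays of the series, and 18194 genes were compared, each through the probe set with the highest mean signal over the 8 arrays. The host cells were male 129sv ESCs of the NS tet-off line, in which both copies of the NS gene are disrupted and an NS cDNA in the ROSA26 locus is driven by a promoter that doxycycline (Dox) silences, so that without Dox both cell populations made NS from the transgene only. The expression vectors, with Esrrb or empty, were stably integrated under puromycin selection, and the cells grew without feeders in medium with serum and the cytokine LIF. Whether each population was a pool or a clone is not stated. The 6 other arrays hold Nanog-overexpressing cells and cells in the 2i condition (inhibitors of MEK and GSK-3) without Dox, and all 4 kinds of cells after 6 days of Dox, which shuts off NS. No gene vector is named for the 2i cells, though the title of their Dox-treated array adds the word empty and that of the untreated array does not. Each condition has 1 array with no replicate, so every difference below is between single arrays, no test is possible, and precision is limited by how few arrays there are.

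Esrrb is an orphan nuclear receptor of the estrogen-related receptor group that binds DNA alone at a short response element and is known for maintaining self-renewal of naive ESCs together with Pou5f1, Sox2 and Nanog. Primitive endoderm is the extraembryonic lineage that separates from the pluripotent epiblast in the late blastocyst. It is directed by Gata6, Gata4, Sox17 and signals through the receptor Pdgfra, and it gives rise to visceral endoderm, which takes up and secretes nutrients and carrier proteins, and to parietal endoderm, which lays down a thick basement membrane of laminin and type IV collagen.

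The difference reported is the log2 signal of the Esrrb array minus that of the empty vector array, and over 2-fold means a difference above 1 or below -1. Forced Esrrb went with a signal over 2-fold higher for 230 genes, 1.26% of those compared, and with a signal over 2-fold lower for 102 genes, 0.561%. The median difference over all genes was 0.03 with an SD over genes of 0.356, and 89.5% of genes lay within 0.5 of 0 on the log2 scale. Large departures were mostly upward: a 4-fold difference was passed by 31 genes upward and 4 downward, and an 8-fold difference by 12 and 1. The Nanog array differed from the same empty vector array by over 2-fold for 79 genes upward (0.434%) and 46 downward (0.253%), and the 2i array for 94 (0.517%) and 44 (0.242%). These 3 comparisons share the empty vector array, so their values are given side by side and their overlap is not used. Of the 230 higher genes, 86 had an empty vector signal below that array's median of 5.34, where RMA signals compress differences. No call of presence over background was used, so for genes below the array median the differences are of signals and are not read as folds of RNA.

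**Figure D1:**
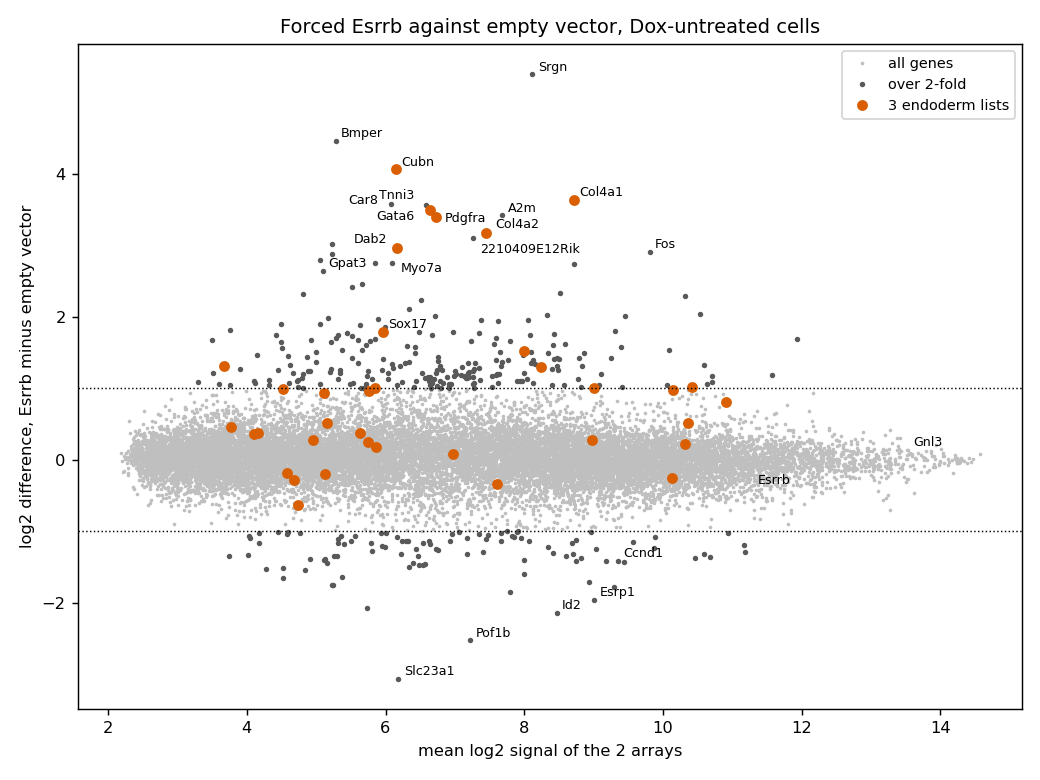
Log2 difference between the Esrrb and empty vector Dox-untreated arrays (vertical) against the mean log2 signal of the 2 arrays (horizontal), 1 point per gene. Light points are all 18194 genes, dark points the 230 higher and 102 lower genes beyond the dotted 2-fold lines, and orange points the 36 measured genes of the 3 endoderm lists, of which 13 lie above the upper line and 0 below the lower.

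Genes of the primitive endoderm and its derivatives stood among the largest differences. Of 36 measured genes on 3 lists (primitive endoderm regulators, visceral endoderm products, and parietal endoderm and basement membrane), 13 were over 2-fold higher with forced Esrrb, beside 1.26% of all genes, and 0 were over 2-fold lower. Their median difference was 0.67, beside 0.03 over all genes. On the Nanog array, set against the same empty vector array, 0 of the 36 were over 2-fold higher and 1, the lipoprotein receptor Lrp2, was over 2-fold lower. In cell populations such as these, more cells of a type and more RNA per cell cannot be told apart.

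Promoter sequences, 250 bases before to 50 after the annotated start of transcription, are given from RefSeq (GRCm38.p6) for 5 of the higher genes. Col4a1 and Col4a2, which encode the chains of the common type IV collagen and differed by 3.64 and 3.18 on the log2 scale, lie head to head on chromosome 8. The windows chr8:11312777-11313076 (minus strand, Col4a1) and chr8:11312555-11312854 (plus strand, Col4a2) have annotated starts 21 bases apart and share 78 bases, printed in capitals, each window 5′ to 3′ on its own gene's strand.
Col4a1: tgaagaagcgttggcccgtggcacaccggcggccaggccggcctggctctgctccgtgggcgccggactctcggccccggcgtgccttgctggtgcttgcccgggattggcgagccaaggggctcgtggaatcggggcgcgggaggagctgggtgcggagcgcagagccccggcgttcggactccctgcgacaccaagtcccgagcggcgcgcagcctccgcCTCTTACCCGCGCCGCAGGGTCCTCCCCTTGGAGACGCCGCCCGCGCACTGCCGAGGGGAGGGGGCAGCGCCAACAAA
Col4a2: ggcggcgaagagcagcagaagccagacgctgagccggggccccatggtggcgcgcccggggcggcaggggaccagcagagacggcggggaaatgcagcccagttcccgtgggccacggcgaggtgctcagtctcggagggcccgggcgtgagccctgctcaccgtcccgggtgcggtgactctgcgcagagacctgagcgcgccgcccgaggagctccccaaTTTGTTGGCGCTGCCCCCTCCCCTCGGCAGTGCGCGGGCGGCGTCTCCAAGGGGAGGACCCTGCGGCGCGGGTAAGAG
Among the genes themselves, Dab2, an endocytic adaptor needed in visceral endoderm, is shown for a form of the letters that GATA factors such as Gata6 recognise, in capitals. Only this form (AGATAA, or TTATCT read on the opposite strand) was searched, and variants of it, such as the tgataa before the start here, were neither marked nor counted. In the window chr15:6299539-6299838 (plus strand), 1 of 2 windows listed for the gene, the letters searched lie 14 bases after the start.
Dab2: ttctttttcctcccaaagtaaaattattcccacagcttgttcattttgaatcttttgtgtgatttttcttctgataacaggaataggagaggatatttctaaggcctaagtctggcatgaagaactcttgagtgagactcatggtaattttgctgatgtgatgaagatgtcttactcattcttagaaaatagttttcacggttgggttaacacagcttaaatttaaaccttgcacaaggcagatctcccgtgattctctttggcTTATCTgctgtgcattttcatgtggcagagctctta
S100g, a calcium-binding protein on the visceral endoderm list, and Stra8, which acts at entry into meiosis, are shown for the core of the response element of estrogen-related receptors (AAGGTCA, or TGACCTT on the opposite strand), again in capitals. It occurs 2 times in the S100g window chrX:162964550-162964849 (minus strand), 221 and 107 bases before the start, and 1 time in the Stra8 window chr6:34920698-34920997 (plus strand), 195 bases before the start.
S100g: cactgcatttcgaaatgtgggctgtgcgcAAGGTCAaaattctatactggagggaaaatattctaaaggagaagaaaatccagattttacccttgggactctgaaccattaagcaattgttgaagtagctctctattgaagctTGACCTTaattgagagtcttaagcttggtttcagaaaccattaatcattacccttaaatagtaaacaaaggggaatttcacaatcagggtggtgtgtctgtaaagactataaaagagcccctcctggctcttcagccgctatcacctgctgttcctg
Stra8: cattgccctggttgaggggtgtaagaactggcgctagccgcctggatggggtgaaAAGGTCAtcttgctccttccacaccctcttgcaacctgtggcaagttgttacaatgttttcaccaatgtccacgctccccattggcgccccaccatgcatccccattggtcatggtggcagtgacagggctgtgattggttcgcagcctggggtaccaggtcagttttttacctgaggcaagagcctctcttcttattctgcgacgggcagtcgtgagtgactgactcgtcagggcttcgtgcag
In the promoter windows of the higher genes these letters were less frequent than over all genes on the array, and about as frequent as, or slightly more frequent than, in those of the lower genes. The response element core was found in 7 of 219 windows of the 176 higher genes that matched the table (3.20%), in 3 of 95 windows of 72 lower genes (3.16%), in 3.92% of windows of all genes on the array and in 4.72% of all 32851 windows. The GATA letters were found in 12 of the 219 windows (5.48%), in 4.21% of windows of lower genes, in 8.07% for all genes on the array and in 11.2% of all windows. A match is only a run of letters, and windows of this length leave out distant enhancers.

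Among the regulators of primitive endoderm, 6 of 8 measured genes were over 2-fold higher with forced Esrrb, and the list median was 1.66. The 8 genes were each higher on the Esrrb array than on any of the 3 other Dox-untreated arrays, which 30.4% of all genes also were. Gata6, the transcription factor that specifies the lineage, had log2 signals of 4.89 with the empty vector, 4.67 in 2i and 5.23 with Nanog, against 8.39 with Esrrb, a difference from the empty vector of 3.50. Pdgfra, the receptor that marks primitive endoderm, had signals of 5.02, 5.06 and 5.21 on those arrays and 8.42 with Esrrb, a difference of 3.40. Both genes were below or near the array median on the other 3 arrays and well above it with Esrrb. Dab2 stood at 4.68, 4.51 and 4.61 against 7.64 with Esrrb, a difference of 2.96. Sox17, a transcription factor of the same lineage, stood at 5.06, 5.04 and 5.19 against 6.86, a difference of 1.80. Its close relative Sox7 was already above the median elsewhere, at 7.24, 6.68 and 7.90, and stood at 8.77 with Esrrb.

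The remaining regulators were nearer to the threshold. Hnf4a, a nuclear receptor of visceral endoderm, only just passed it, at 5.35 with the empty vector, 5.93 in 2i and 5.79 with Nanog against 6.36 with Esrrb. Gata4, the partner of Gata6, had signals of 4.64 with the empty vector and 5.58 with Esrrb, a difference of 0.94, and the forkhead factor Foxa2 differed by 0.51.

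The visceral endoderm list was uneven, with 3 of 15 measured genes over 2-fold higher and a median of 0.25. Cubn, the cubilin receptor of apical uptake, had log2 signals of 4.11 with the empty vector, 3.89 in 2i, 4.17 with Nanog and 8.18 with Esrrb, a difference from the empty vector of 4.07. Amn, the membrane anchor that carries cubilin to the surface, stood at 7.59, 7.67 and 7.26 on the other arrays and at 8.90 with Esrrb, a difference of 1.30. These are both subunits of a single receptor complex, and the signal of each was highest on the Esrrb array. S100g differed by 1.32 at a low level, 3.01 against 4.32, below the array median on both arrays. The secreted products did not show such differences: the alpha-fetoprotein gene Afp was at 4.68 with the empty vector and 4.49 with Esrrb, the transthyretin gene Ttr at 5.62 and 5.87, and the apolipoprotein gene Apoa1 at 5.22 and 5.02. Apoa4 differed by -0.63, the lowest value on the list, Apom by 0.97 and Lrp2, the partner receptor of cubilin, by -0.34. Trf was not measured by a probe set with a single gene name.

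Of 13 parietal endoderm and basement membrane genes, 4 were over 2-fold higher, with a list median of 0.81. Col4a1 had log2 signals of 6.89 with the empty vector, 6.85 in 2i, 7.61 with Nanog and 10.53 with Esrrb, a 12.5-fold difference from the empty vector. Col4a2 had 5.86, 5.70, 6.41 and 9.03 in the same order, a 9.04-fold difference. The pair with adjoining promoters thus stood highest on the same array, each by over 2-fold above the next array. Lamb1, a laminin chain, and Serpinh1, the collagen chaperone of the endoplasmic reticulum, each differed by 1.01, and Serpinh1 stood at 9.07 in 2i and 8.98 with Nanog against 9.51 with Esrrb. Values just short of the threshold were found for the laminin chain Lama1, at 9.65 with the empty vector and 10.63 with Esrrb, and for the parathyroid hormone receptor Pth1r, at 4.02 and 5.01. Sparc, a secreted matrix glycoprotein, differed by 0.81 but stood almost as high in 2i (11.24) as with Esrrb (11.32). The third laminin chain Lamc1 differed by -0.25, and the parietal markers Thbd and Plat, both below or near the array median, by 0.46 and 0.38.

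**Figure D2:**
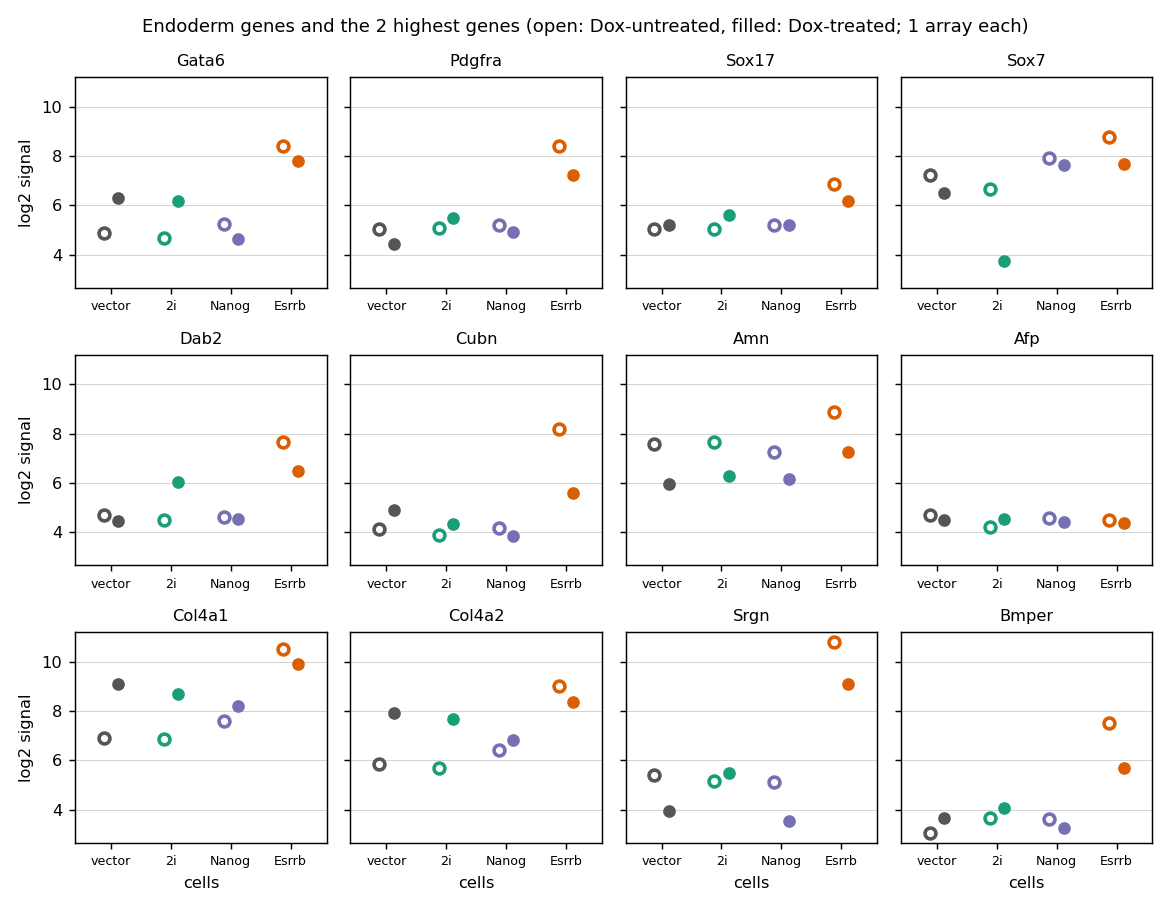
Log2 signal (vertical) of 12 genes in the 4 kinds of cells (horizontal), 1 array per point, with open points for Dox-untreated and filled points for Dox-treated cells. On the Dox-untreated arrays Gata6, Pdgfra, Dab2, Cubn, Srgn and Bmper are at or below 5.42 in all but the Esrrb cells, where they lie between 7.51 and 10.82, and Afp stays between 4.20 and 4.68.

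Probe sets of 1 gene did not always move together. For Cubn the other probe set differed by 2.33, for Col4a1 by 2.97 and for Sox17 by 4.16, each over 2-fold as well. The remaining probe sets of Gata6 differed by 1.73 and 0.08, those of Pdgfra by 0.82 and 0.93, those of Dab2 by 2.16, 0.53 and 0.60, and that of Sox7 by 0.01. Those of Hnf4a differed by only 0.24, 0.30 and 0.22, and that of Gata4 by -0.26. For Car8, a gene outside these lists that is named below, they differed by 0.03 and 0.45. Over all higher genes, 116 of 230 had further probe sets, and for 108 of these at least 1 pointed the same way and for 46 at least 1 was also over 2-fold. Of the 102 lower genes 48 had further probe sets, with at least 1 pointing the same way for 46 and at least 1 over 2-fold lower for 19. All further probe sets pointed the same way for 96 of the 116 higher and 37 of the 48 lower genes. No further probe set passed 2-fold for 70 of the 116 and 29 of the 48. The same shares over all genes were not computed.

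The highest difference of all genes belonged to Srgn, the core protein of the secretory granule proteoglycan serglycin. Its log2 signals were 5.42 with the empty vector, 5.16 in 2i and 5.12 with Nanog, against 10.82 with Esrrb, a difference of 5.40. Bmper, a secreted protein that binds bone morphogenetic proteins, followed with 3.05, 3.67, 3.64 and 7.51, a difference of 4.46. Outside the Esrrb cells Bmper was below the array median and Srgn close to it. Car8, a carbonic anhydrase relative without enzyme activity, stood at 4.29, 5.35, 5.20 and 7.88. Tnni3, the troponin I of heart muscle, stood at 4.79, 5.71, 5.70 and 8.36. Further genes among the 15 with the highest differences, taken from genes whose brighter array of the 2 was above the median of that value, were the unconventional myosin gene Myo7a (2.76), Gpat3, an acyltransferase of triglyceride synthesis (2.75), and the endoderm genes Cubn, Col4a1, Gata6, Pdgfra, Col4a2 and Dab2. Of these 15 genes, 12 were over 2-fold above each of the 3 other Dox-untreated arrays, as were 0.396% of all genes. Nothing is read from that count, since the 15 were chosen on the same Esrrb array and 9 of them had an empty vector signal below the array median, so that they passed the brightness limit through the Esrrb array.

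The exceptions among the 15 were genes that were also higher on the Nanog array. A2m, the protease inhibitor alpha-2-macroglobulin, had log2 signals of 5.97 with the empty vector, 7.10 in 2i, 8.58 with Nanog and 9.40 with Esrrb. Fos, an immediate early transcription factor of Erk signalling, had 8.35, 9.52, 10.44 and 11.27. In both genes the empty vector array was the lowest and the Esrrb array the highest, with the 2i and Nanog arrays in between. The uncharacterised gene 2210409E12Rik differed by 3.10 with Esrrb and by 2.19 with Nanog. Egr1, another immediate early gene of the same pathway, differed by 2.04 with Esrrb and 1.69 with Nanog, and against the 2i array in place of the empty vector by less than 2-fold (0.83). Of 16 MEK and Erk feedback genes 3 passed 2-fold upward (Fos, Egr1 and Phlda1, 1.51), 0 downward, and the median was 0.03. The untreated 2i array did not show low signals of such feedback genes. The median signal of the 16 was 9.72 there and 9.08 with the empty vector, and Dusp6 was at 10.95 against 10.97. The reason was not tested. The label of the 2i array is doubted here, but is not shown to be wrong. Counts of genes above or below the 3 other untreated arrays rest in part on this array. With the empty vector and Nanog arrays alone, all 8 regulators of primitive endoderm were above both, as were 37.9% of all genes. Of the 15 highest genes, 12 were over 2-fold above both, as were 0.572% of all genes. Nothing is read from the count of the 15, since they were chosen on the Esrrb and empty vector arrays.

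Other ligands and receptors gave scattered values. Klb, the co-receptor beta-klotho for endocrine FGFs, was at 4.31, 4.81, 4.31 and 6.73 on the 4 untreated arrays, a difference of 2.42 from the empty vector. Fgf17 was lower by 1.35 in log2 units (-1.35), and the median of 12 FGF ligands and receptors was 0.14. Dkk1, a secreted Wnt antagonist, differed by 1.91 from a level of 3.54, whereas the median of 12 Wnt and beta-catenin target genes was -0.11. Pdk4, the kinase that limits entry of pyruvate into mitochondria, differed by 1.79, beside a median of 0.03 for 16 mitochondrial energy genes. Krt8, a simple epithelial keratin, differed by 1.81 with all 3 of its probe sets over 2-fold higher, while the median of 24 trophoblast markers was 0.09.

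Lower signals with forced Esrrb were fewer and smaller. Slc23a1, a transporter of ascorbate, had log2 signals of 7.72 with the empty vector, 5.88 in 2i, 6.65 with Nanog and 4.65 with Esrrb. Its difference from the empty vector was -3.06, with the Esrrb signal below the array median. The empty vector array was the highest for this gene, and its second probe set differed by -0.53. Pof1b, an actin-associated protein of epithelia, was even on the other arrays, with 8.48, 8.04 and 8.16, against 5.96 with Esrrb, 5.77-fold lower than with the empty vector. Id2, an inhibitor of basic helix-loop-helix factors, stood at 9.54, 8.70, 8.50 and 7.40. Cyclin D1 (Ccnd1), which drives entry into S phase, stood at 10.06, 9.72 and 10.17 against 8.65 with Esrrb, and its 3 probe sets differed by -1.41, -1.59 and -1.21. Only 12 genes, 0.066%, were over 2-fold below each of the 3 other untreated arrays (29 genes, 0.159%, without the 2i array): Slc23a1, Pof1b, Id2, Ccnd1, Esrp1, Grhl2, Samd4, Tex13b, Bnipl, Adgrb2, A930024E05Rik and 4930509E16Rik, the last 6 named after their values were seen.

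Genes of epithelial identity were among the lower ones. Esrp1, a splicing regulator of epithelial cells, had log2 signals of 9.99 with the empty vector, 9.15 in 2i, 9.54 with Nanog and 8.03 with Esrrb, a difference of -1.96. Grhl2, a transcription factor that maintains epithelial junctions, had 8.80, 8.55, 8.58 and 7.20, a difference of -1.61, while its 3 other probe sets differed by -0.26, -0.09 and -0.21. On a list of 12 epithelial junction genes 3 were over 2-fold lower, beside 0.561% of all genes, 0 were over 2-fold higher, 2 were above 0, beside 54.0% of all genes, and the median was -0.46. The 3 were Esrp1 and the tight junction claudins Cldn7 (-1.43) and Cldn6 (-1.04). Occludin (Ocln), another tight junction protein, differed by -0.76, the adhesion molecule Epcam by -0.60 and E-cadherin (Cdh1) by -0.45 at a level of 11.53 with Esrrb. Cdh1 and Epcam, the brightest of these, thus remained among the bright genes, with Epcam at 11.44.

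The rest of the 15 lowest genes had no common role on the lists. They were the calmodulin-like gene Calml4 (-1.84), the fatty acid transporter Slc27a2 (-1.78), the imprinted cell cycle inhibitor Cdkn1c (-1.71), the insulin receptor substrate Irs4 (-1.50), the vesicle release factor Cadps2 (-1.48), the G protein subunit Gna14 (-1.47), the corepressor Runx1t1 (-1.46), the meiotic chromosome protein Hormad1 (-1.44) and the transporter Slc35f2 (-1.42). For Irs4 and Cadps2 the 2i array was as low as the Esrrb array, at 5.53 and 5.62 against 5.58 and 5.80, and for Gna14 the Nanog array was, at 5.79 against 5.75. Slc27a2 (-1.22), Cdkn1c (-1.11) and Runx1t1 (-1.11) were also over 2-fold lower on the Nanog array than with the empty vector. Calml4 (-0.91), Slc35f2 (-0.81) and Hormad1 (-0.65) were lower there by less. Of the 15 lowest genes, 13 were below each of the 3 other untreated arrays, as were 25.8% of all genes, and 5 were over 2-fold below each. Without the 2i array these counts were 15, beside 33.8% of all genes, and 8. They follow in part from the choice of the genes on the same Esrrb array, and nothing is read from them.

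**Figure D3:**
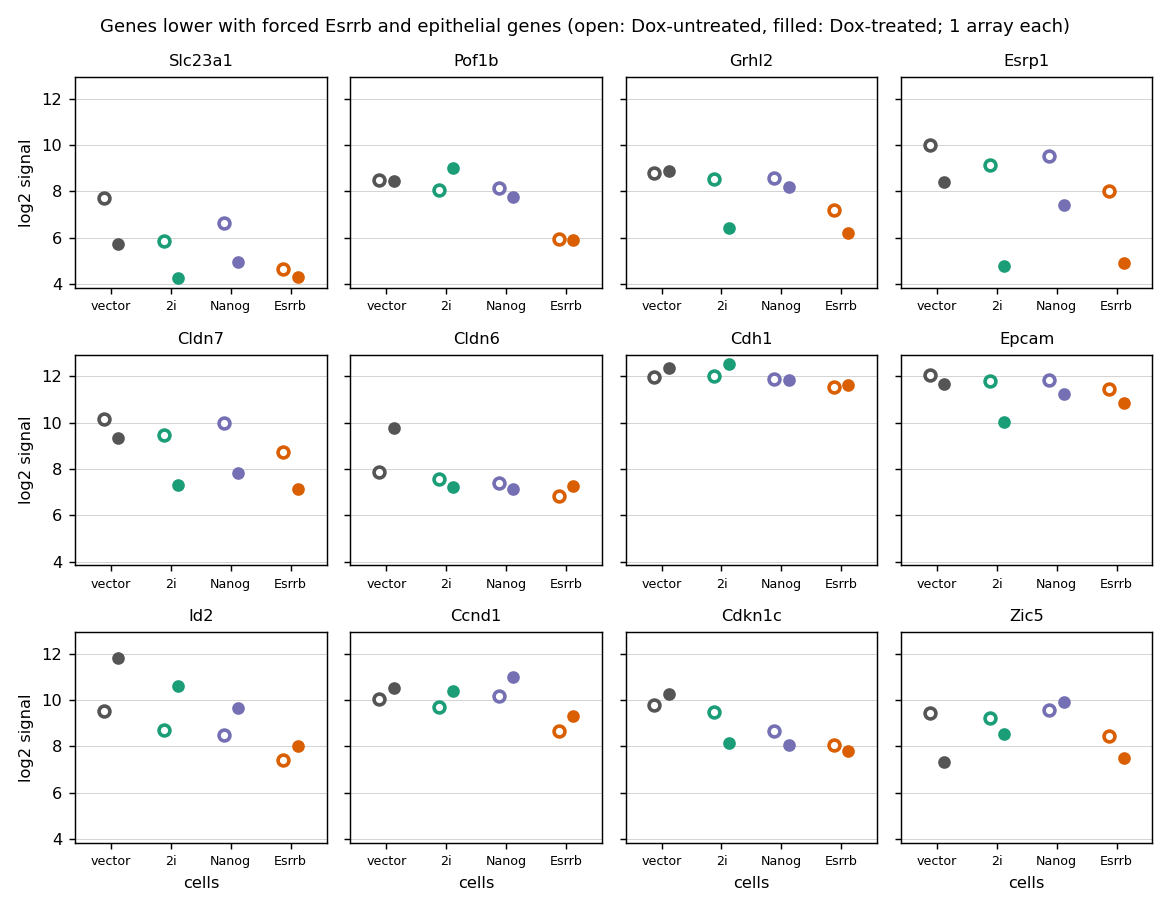
Log2 signal (vertical) of 12 genes in the 4 kinds of cells (horizontal), 1 array per point, with open points for Dox-untreated and filled points for Dox-treated cells. The Esrrb cells have the lowest open point in each panel, from 4.65 for Slc23a1 to 11.53 for Cdh1, and the gap to the next open point is over 1 for Slc23a1, Pof1b, Grhl2, Esrp1, Id2 and Ccnd1.

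Pluripotency genes were near their level with the empty vector. Pou5f1 had a log2 signal of 13.15 with the empty vector and 13.07 with Esrrb, Sox2 12.78 and 12.71, Zfp42 13.29 and 13.27, and Nanog 12.81 and 12.90. None of 29 measured pluripotency genes passed 2-fold in either direction (0 higher, 0 lower), the median was 0.01, and the values ran from -0.54 for Sox15 to 0.66 for Tbx3. Both arrays thus carried the ESC markers at high signal, while 4 of 5 fibroblast markers checked (Col1a1, Col1a2, Col3a1 and Dcn, not Thy1) and 4 of 6 trophoblast markers (Cdx2, Elf5, Gata3 and Krt7, not Eomes or Krt18) were below the array median on both. The forced gene itself could not be seen: the Esrrb probe set with the highest signal stood at 11.31 with the empty vector and 11.27 with Esrrb, and the other 2 differed by 0.74 and -0.05. Where the probe sets lie relative to the vector's cDNA is not given in the sources used here, so they do not check the label. NS was alike, with Gnl3 at 13.47 with the empty vector and 13.61 with Esrrb.

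Most other lists centred near 0. Of 31 lists, 24 had a median within 0.2 of 0 and 13 had 0 genes over 2-fold in either direction, among them neurectoderm markers (12 genes, median -0.11), p53 targets (18 genes, 0.02), LIF and Stat3 genes (12 genes, 0.13), Nodal pathway genes (13 genes, 0.08), glycolysis genes (15 genes, 0.07) and housekeeping genes (9 genes, 0.02). Ribosome biogenesis genes, in whose pathway NS acts, had small differences with a median of -0.18. Of the 18, 3 were above 0, beside 54.0% of all genes, 14 were below each of the 3 other untreated arrays, beside 25.8%, and 15 were below both the empty vector and Nanog arrays, beside 33.8%. The lowest was Nolc1 at -0.58. Estrogen-related receptors and their cofactors had a median of 0.03 over 10 genes, with the coactivator Ppargc1b just past the threshold for lower genes, at 8.41 with the empty vector and 7.41 with Esrrb. Definitive endoderm and mesendoderm genes had a median of 0.06 over 9 genes, and only Eomes was over 2-fold higher (1.07), at 6.74 with the empty vector, 7.32 in 2i, 7.44 with Nanog and 7.82 with Esrrb. Germline genes were mixed, with Sohlh2 (1.76) and Stra8 (1.60), regulators of germ cell differentiation and meiosis, over 2-fold higher and Hormad1 over 2-fold lower among 16. Fibroblast markers had a median of 0.09 with the receptor Pdgfrb (1.23, at 5.73 in 2i against 5.81 with Esrrb) and vimentin (Vim, 1.08) over 2-fold higher of 12. Sterol synthesis genes, 13 in number, had a median of 0.29 with none over 2-fold.

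**Figure D4:**
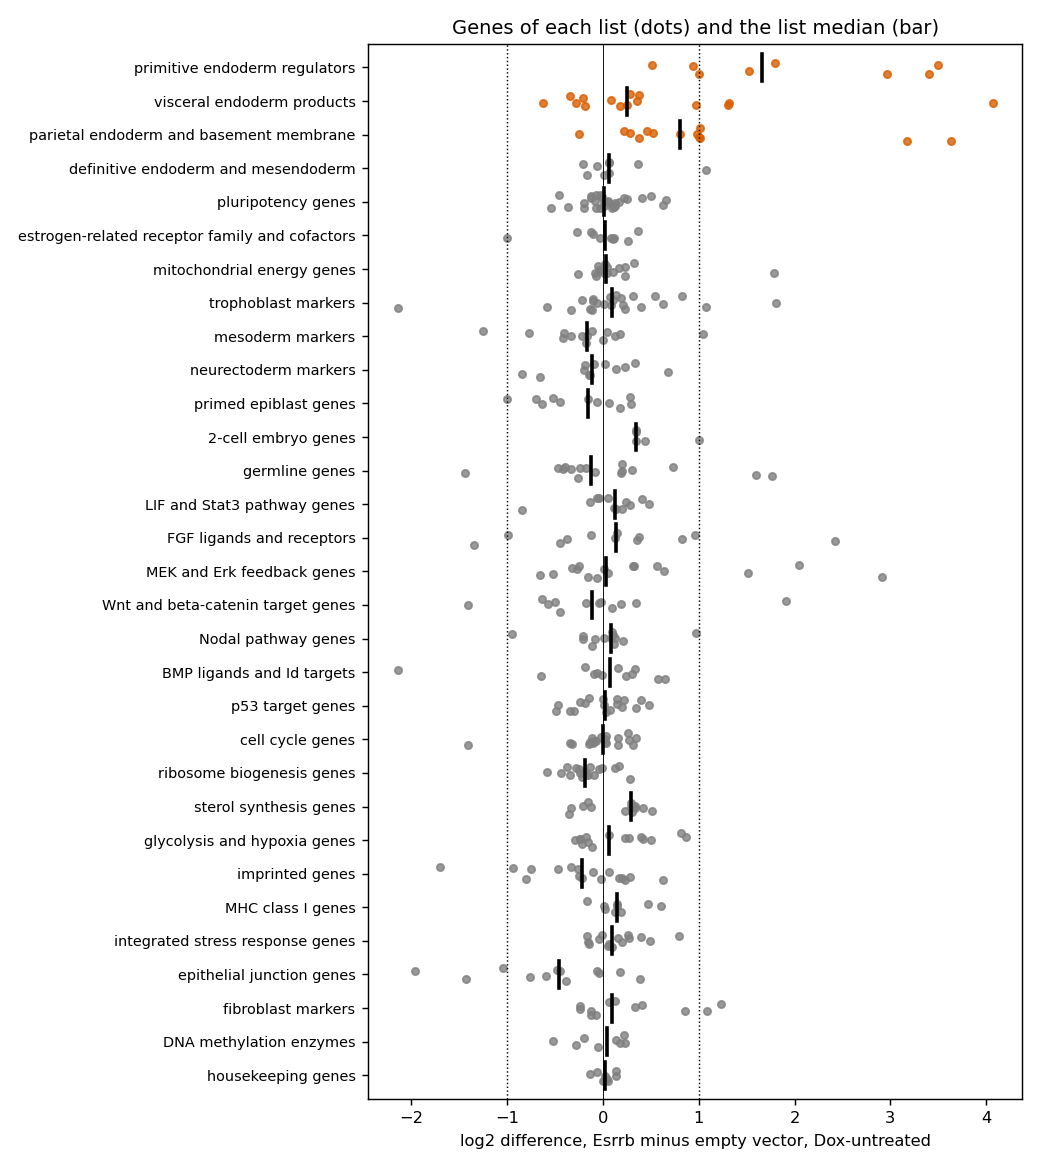
Log2 difference between the Esrrb and empty vector Dox-untreated arrays (horizontal) for each measured gene (dots) of 31 lists (rows), with bars at the list medians and dotted lines at 2-fold. The 3 endoderm lists at the top, in orange, have medians of 1.66, 0.25 and 0.81, and 24 of the 31 medians lie within 0.2 of 0.

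The same genes were then read on arrays that the main comparison does not use, by setting Esrrb against Nanog cells after Dox, when NS is shut off. In that pair 318 of all genes (1.75%) were over 2-fold higher in Esrrb cells and 146 (0.802%) over 2-fold lower. Of the 230 genes that forced Esrrb had higher before Dox, 92 (40%) were over 2-fold higher here as well, 3 were over 2-fold lower, and the median was 0.79. Of the 102 lower genes, 21 (20.6%) were over 2-fold lower, 2 over 2-fold higher, and the median was -0.36. Over all genes the differences of the 2 pairs had a Pearson correlation of 0.399, a description across genes, which are not independent replicates. The pairs share the stably integrated Esrrb population, but no array. Against the empty vector array after Dox, with NS shut off in both, the Esrrb array passed 2-fold for 654 genes upward (3.59%) and 647 downward (3.56%). Of the 230 higher genes 17 were over 2-fold lower in that pair, and of the 102 lower genes 1 was over 2-fold higher. How many kept their direction there is not given here.

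Srgn held its place in Dox-treated cells, at 3.95 with the empty vector, 5.51 in 2i and 3.54 with Nanog against 9.10 with Esrrb. Gata6 stood at 6.31, 6.17, 4.64 and 7.81 in the same order, Pdgfra at 4.43, 5.49, 4.92 and 7.24, and Bmper at 3.64, 4.07, 3.26 and 5.69. Cubn stood at 4.91, 4.32, 3.85 and 5.60, and Col4a1 at 9.12, 8.68, 8.21 and 9.92. In these 6 genes the Esrrb array was the highest of the Dox-treated arrays too, and in each the gap to the next array was smaller than before Dox. The 6 are among the genes with the highest differences on the untreated Esrrb array. That choice by itself favours a smaller gap on other arrays, so the narrowing is not read as an effect of Dox. Between Esrrb and Nanog cells after Dox, the median of all 36 measured endoderm genes was only 0.06, beside 0.03 for all genes. A positive difference was found for 23 of the 36 (63.9%), beside 54.5% of all genes. Upward, 8 of the 36 passed 2-fold, and downward 1 did. The lists as a whole thus stood little above all genes in this pair. Of the 13 higher endoderm genes, 7 were over 2-fold higher in Esrrb than in Nanog cells after Dox, 11 were above 0, and the median was 1.10. Set against the empty vector after Dox, those over 2-fold higher were Pdgfra (2.81), Dab2 (1.9959), Gata6 (1.4997), Amn (1.29) and Sox7 (1.17). Sox17 (0.97), Hnf4a (0.83), Col4a1 (0.80), Cubn (0.70) and Col4a2 (0.45) differed by less. S100g (-0.34), Lamb1 (-0.76) and Serpinh1 (-1.49) were lower in Esrrb cells in that pair. Within the Esrrb cells, 12 of these 13 genes were lower after Dox than before, 7 of them by over 2-fold. Their median change with Dox was -1.10, beside 0.18 for the 230 higher genes and 0.002 for all genes. The 13, like the 230, were chosen on the untreated Esrrb array that is subtracted here, which by itself favours a fall. Nothing is read from the size of their fall. Of all 36 measured endoderm genes 27 were lower after Dox, beside 9009 of all 18194 genes. By over 2-fold 9 of the 36 were lower, beside 176 of all genes, and their median was -0.46. Among the lower genes, Esrp1 stood at 4.93 in Esrrb and 7.40 in Nanog cells after Dox, Grhl2 at 6.20 and 8.18, Pof1b at 5.90 and 7.78, and Ccnd1 at 9.32 and 10.98. The 2i array after Dox was as low as the Esrrb array for Esrp1 (4.78) and Grhl2 (6.44) but not for Pof1b (8.99).

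**Figure D5:**
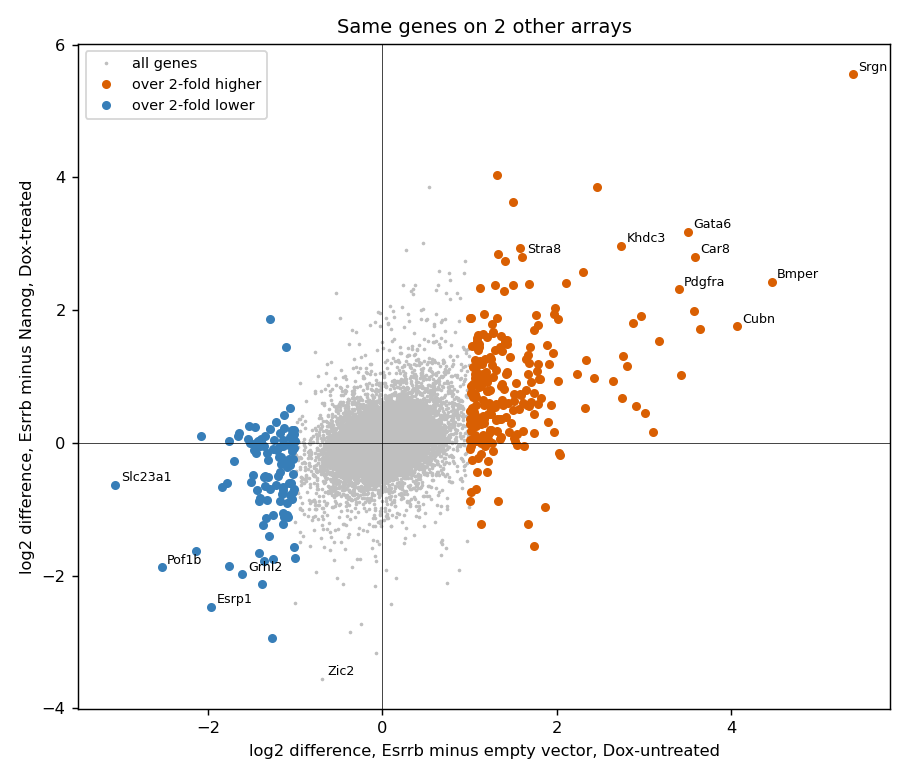
Log2 difference between Esrrb and Nanog cells after Dox (vertical) against the difference between Esrrb and empty vector cells without Dox (horizontal), 1 point per gene, from 4 arrays of which none is used on both axes. Orange points are the 230 higher genes, 92 of them above 1 on the vertical axis, and blue points the 102 lower genes, 21 of them below -1.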

How the data were processed

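RNA of NS tet-off ESCs was measured on Affymetrix mouse genome arrays, 8 arrays with 1 per condition. The authors made the deposited log2 signals with RMA in the affy package (versions not given in the sources used here), a method that removes background, forces the arrays to 1 distribution of signals and combines the probes of a probe set. They were used as deposited, and 0 value columns belonged to no sample. A shift of all genes together would not be seen. Of 45101 probe sets, 34958 have 1 gene symbol, 932 several (not used) and 9211 none here, and 34754 matched RefSeq by Entrez ID. Each of 18194 genes took its probe set of highest mean signal. Differences were subtractions of log2 signals with a 2-fold threshold, computed in Python 3.11.15 (numpy 2.4.6, pandas 2.3.3, matplotlib 3.10.9) and tested on simulated data. No p-values were computed.

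The members and the 31 gene lists were chosen with earlier results of these data known, and support nothing by themselves. Named are Gnl3, Esrrb, Nanog, the endoderm lists, the 15 highest and 15 lowest differences among genes whose brighter of the 2 arrays was above the median of that value (6.84), a limit many of the highest passed only on the Esrrb array, and up to 4 genes per other list. Other genes were named after their values were seen, Dusp6, Cdh1, Epcam, Pou5f1, Sox2 and Zfp42 as markers. Alternatives were the mean of probe sets, no _x_at probe sets, a dim filter, renormalization, other reference arrays and other thresholds. The mean of the empty vector and Nanog arrays as the reference was added after seeing the data.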

Additional observations from a re-analysis of the deposited data

Results flagged for a closer look

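In 4 named genes the Esrrb array lay over 2-fold above the empty vector array without Dox and over 2-fold below it after Dox. These pairs share no array, and the difference between them was not tested. Krt8 differed by 1.81 without Dox and -2.43 with Dox, Phlda1 by 1.51 and -1.87, Serpinh1 by 1.01 and -1.49, and Gpat3 by 2.75 and -1.09. In each gene the empty vector signal was higher after Dox than before, for Krt8 12.25 against 8.40. Over all genes 17 showed this pattern and 1 the reverse.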

How the results depend on the processing

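No paired analysis was possible because each condition has 1 array, and for the same reason no replicate could be left out. Of the 230 higher, 102 lower and 13 higher endoderm genes, a filter on dim genes left 151 higher and 64 lower, the mean of the 3 other untreated arrays (the doubted 2i array among them) as the reference gave 148 and 41, the mean of the empty vector and Nanog arrays alone (added after seeing the data) 166 and 57, with 10 endoderm genes, a 1.5-fold threshold 836 and 488, and a 3-fold threshold 70 and 13, with 7 endoderm genes. The other counts stayed within 1.5 times. List medians (log2) moved as follows. With the mean of probe sets they were 1.17 for primitive endoderm, 0.075 visceral, 0.57 parietal, -0.035 Nodal, 0.15 sterol and -0.19 DNA methylation. With the dim filter, which keeps a gene by its brighter array and so favours genes that are high with Esrrb, they were 2.96 primitive endoderm, 0.69 visceral, 0.23 trophoblast, -1.25 mesoderm (1 gene), -0.044 primed epiblast, 0.010 germline, 0.0065 FGF, -0.45 Wnt, 0.20 BMP and 0.97 fibroblast. Against the 2i array, whose label is doubted, they were 1.95 primitive endoderm, 0.46 parietal, 0.17 definitive endoderm, 0.032 mesoderm, 0.045 neurectoderm, -0.0020 primed epiblast, -0.65 2-cell, 0.059 germline, 0.025 LIF, -0.22 Wnt, -0.085 Nodal, 0.26 p53, 0.066 sterol, -0.045 glycolysis and 0.28 MHC. Against the mean of 3 arrays they were 0.54 parietal, 0.0023 neurectoderm, -0.31 primed epiblast, -0.0066 2-cell, 0.0056 germline, 0.15 MEK, 0.16 p53, 0.082 sterol and 0.26 MHC. Against the empty vector and Nanog mean they were 1.46 primitive endoderm, 0.0027 germline, 0.18 MEK and 0.11 sterol. The mesoderm median changed sign against the 2i array, the neurectoderm and 2-cell medians against the 2i array and the mean of 3, and the germline median against all 3 references and with the dim filter, and the cause was not tested. Against the 2i array Cadps2 (0.18), Irs4 (0.052) and Usp17la (-1.12) also changed sign. Of 55 named genes over 2-fold, 16 were no longer so against the 2i array, 14 against the mean of 3, 12 against the empty vector and Nanog mean, 10 with the mean of probe sets, and 1 each without _x_at probe sets (Snai2) and with renewed quantile normalization (Ppargc1b). Centring hardly moves these arrays and the dim filter changes no gene's difference, so neither tests these calls. Hnf4a, Pdgfrb, Vim, Snai2 and Runx1t1 were lost against all 3 references and with the mean of probe sets, Serpinh1, Eomes, Cldn6 and Ppargc1b against all 3 references, Cldn7, Egr1 and Phlda1 against the 2i array only, Sox7 and Grhl2 with the mean of probe sets, and Lamb1 there and against the empty vector and Nanog mean.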

Other observations

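Several further genes with large differences were picked after their values were seen, and support nothing. The fatty acid carrier Fabp3 stood at 9.17 with the empty vector and 11.47 with Esrrb, the lactate dehydrogenase subunit Ldhb at 11.09 and 12.78, the slow troponin T Tnnt1 at 7.78 and 9.39, the muscle phosphoglycerate mutase Pgam2 at 6.89 and 8.41, the thiolase Acaa2 at 7.76 and 9.03, and Cox7a1, a cytochrome oxidase subunit, at 7.03 and 8.24. After Dox the same genes were at 12.04, 13.01, 8.67, 8.55, 9.94 and 8.44 in Esrrb cells and at 9.47, 11.57, 8.07, 7.81, 8.29 and 7.66 in Nanog cells. They are not taken as a group: the list of 16 mitochondrial energy genes had a median of 0.03, and the fatty acid transporter Slc27a2 differed by -1.78. Khdc3, an oocyte and early embryo gene, stood at 7.35 with the empty vector, 7.68 in 2i, 7.23 with Nanog and 10.09 with Esrrb.

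Other genes with a low empty vector signal were higher with forced Esrrb before Dox and low again after Dox. Nostrin, which regulates nitric oxide synthase traffic, was at 3.72 with the empty vector and 6.74 with Esrrb, and at 3.84 in Esrrb cells after Dox. The water channel Aqp8 was at 3.78 and 6.42, and 4.48 after Dox, and the forkhead gene Foxq1 at 4.91 and 6.52, and 5.12 after Dox. Genes tied to epithelial state outside the list were also picked after their values were seen, and support nothing. Ap1m2, an adaptor of basolateral sorting, differed by -1.15, Ovol2, a repressor of mesenchymal genes, by -1.06, and Zeb1, a repressor of epithelial genes, by 1.05. The simple epithelial keratin Krt8 went the other way from Ap1m2 and Ovol2, with a difference of 1.81.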
